A study of Mus musculus with 19 samples.

Results

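The 48 noncollagen matrix, crosslinking and protease genes described here were chosen by name, with earlier results of these data known. They are the rows of the 'HEART' table or the single-symbol loci of the 'SHF' table that carry their symbols. All 48 were among the 24421 gene rows of the 'HEART' table, and 47 had a locus of their own among the 32568 loci of the 'SHF' table, since Loxl2 shared its locus with the microRNA gene Mir6950. They fell into 12 genes of the cardiac jelly and interstitial matrix, 12 of elastic fibres and microfibrils, 11 of the basement membrane, and 13 enzymes, inhibitors and chaperones. RNA came from single E9.5 mouse embryos. Embryos referred to as cKO were Mesp1-Cre; Chd7 fl/fl, and control embryos carried Mesp1-Cre, so that both genotypes shared the Cre. The recombinase acts in descendants of Mesp1-expressing mesoderm, and other cells of each dissection kept Chd7. 'HEART' was the outflow tract (OFT) and heart (4 control, 4 cKO, poly(A)-selected mRNA), and 'SHF' was the distal pharyngeal apparatus (5 control, 6 cKO, ribosomal RNA-depleted total RNA). By the embryo codes in the labels, all 8 'HEART' embryos were also among the 11 'SHF' embryos.

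At this stage the heart tube is an outer myocardium and an inner endocardium separated by the cardiac jelly, a matrix rich in hyaluronan that is made by the synthase HAS2, bound by the proteoglycan versican and held together by the link protein HAPLN1. Each cell layer rests on a basement membrane of laminin, a trimer of an alpha, a beta and a gamma chain, joined to type IV collagen by nidogens and by perlecan. Fibrillin microfibrils, which carry latent TGF-beta binding proteins, form the scaffold on which elastin is later laid down. Lysyl hydroxylases and lysyl oxidases prepare and form the crosslinks of collagen and elastin, while metalloproteinases, ADAMTS proteases and their TIMP inhibitors set how fast the matrix is turned over.

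The 'HEART' libraries held 8640839 to 15030099 counts, and levels below are in CPM (counts relative to library size) after scaling the libraries to each other. Chd7 stood at 230.5, 224, 231 and 242 CPM in control against 35.8, 43.5, 42.7 and 20.36 CPM in cKO embryos, in replicate order (log2 fold change -2.71 ± 0.18, SE, edgeR adjusted p = 8.96e-06). In 'SHF' it was 28.2 FPKM in control, against 18.9 FPKM in cKO. All 7 cardiomyocyte markers were present (summed level 38439 to 43561 CPM in control, 37328 to 41264 CPM in cKO), and none of them passed the test between the genotypes. Xist, transcribed from the inactive X chromosome of female cells, stood at 61.4, 1.28, 0.162 and 0.495 CPM in control against 86.3, 63.5, 61.9 and 34.6 CPM in cKO embryos, so of the controls only control 1 carried it at the level of the cKO embryos. Control 4 stood apart from the other controls for erythroid markers (summed level 12619 CPM against 4330 to 5703 CPM) and pharyngeal epithelium markers, mostly keratins (502 CPM against 247 to 254 CPM).

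Of the 46 members tested in 'HEART', 10 were higher in cKO, 3 were lower and 33 did not pass an adjusted p of 0.1 (edgeR's quasi-likelihood test, Benjamini-Hochberg adjustment over 12694 genes). The share called was 28.3% of the tested members, against 6.44% of all genes tested. In the upward direction it was 21.7%, against 3.51% of all genes, and in the downward direction 6.52%, against 2.92%. Since the list was made with earlier results of these data known, these shares only describe it. The higher members were the matrix glycoproteins Sparc and Tnc, the laminin chains Lama4, Lamb1 and Lamc1, the lysyl oxidases Loxl1 and Loxl2, the lysyl hydroxylases Plod1 and Plod2, and the inhibitor Timp3. The lower members were Hapln1, Lama2 and Npnt. The median log2 fold change of the tested members was 0.15, against -0.01 over all genes. Of the 46, 36 lay above 0, as did 6151 of the 12694 genes tested. For 12 tested members the control and cKO values did not overlap (26.1%, against 10.2% of all genes), namely 11 of the called members and Spon1. Dcn and Lox were too low to enter the test.

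**Figure D1:**
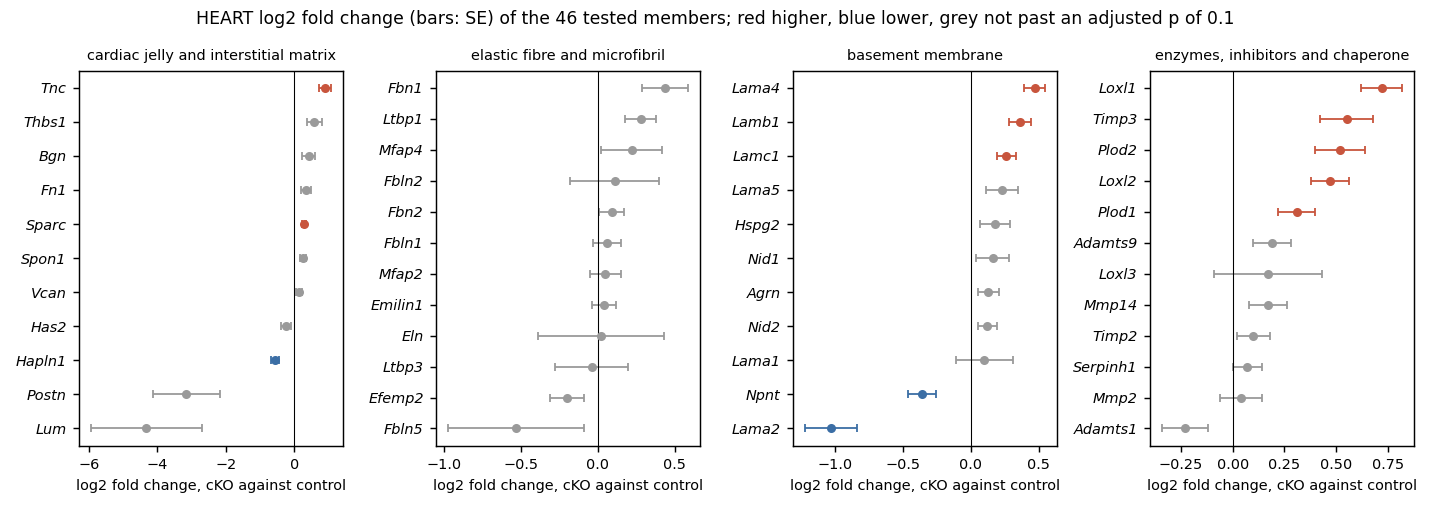
Log2 fold change of cKO against control in 'HEART' for the 46 tested members, in 4 panels by group with their own horizontal scales. Points are edgeR estimates, bars are SE, and colour marks members higher (red) or lower (blue) at an adjusted p of 0.1. The called members lie in the cardiac jelly, basement membrane and enzyme panels, with 0 of 12 in the elastic fibre panel.

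The set of called members changed with Xist as a covariate and, for Lamc1, Npnt, Timp3 and Plod1, with single embryos left out. With log2 Xist as a covariate, 208 of all genes (1.64%) and 7 members were called, all 7 higher in cKO. Lama4, Lamb1, Loxl1 and Plod2 were called in all 18 alternative fits run at that threshold, this one included. The other 9 called members did not pass with the covariate, and Fbn1, Ltbp1 and Lama5 did. With it all 13 kept the direction of the main fit, and of the 9 that did not pass, 6 had a larger log2 fold change than in the main fit and 3, Hapln1, Lama2 and Npnt, a smaller one. Lamc1 was at 0.39, Timp3 at 0.73, Plod1 at 0.38 and Npnt at -0.35 (edgeR adjusted p = 0.1, 0.152, 0.307 and 0.43). Since control 1 alone of the controls carried Xist at the cKO level, Xist and genotype cannot be fully told apart in this fit. For all 13 called members control 1 lay outside the cKO range, on the side of the other controls. The calls rest in part on control 1 itself, so this is no separate check on Xist.

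To show the sequence before the start of called members, RefSeq promoter windows (GRCm38.p6) were matched for 29 of the 48 members, 8 of them called. Each window below is the 250 bases before the annotated start, read in the direction of the gene, and the 4 are the called members whose window touched no annotated exon. Capitals mark the letters GGGCGG, known as the GC box, the letters TATAAA, known as the TATA box, or the letters ACGTG, the core of a hypoxia response element, each searched on both strands. Tnc and Lama2 had the largest fold changes of the called members in each direction, Npnt was the other lower member of this kind, and Plod1 represents the crosslinking enzymes.
Tnc, chr4:64047016-64047265, minus strand: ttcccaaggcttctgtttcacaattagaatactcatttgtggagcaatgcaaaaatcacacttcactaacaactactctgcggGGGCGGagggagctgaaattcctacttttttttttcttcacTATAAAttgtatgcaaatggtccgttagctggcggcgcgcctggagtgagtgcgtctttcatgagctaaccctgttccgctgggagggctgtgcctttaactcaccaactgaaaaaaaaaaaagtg
Lama2, chr10:27616943-27617192, minus strand: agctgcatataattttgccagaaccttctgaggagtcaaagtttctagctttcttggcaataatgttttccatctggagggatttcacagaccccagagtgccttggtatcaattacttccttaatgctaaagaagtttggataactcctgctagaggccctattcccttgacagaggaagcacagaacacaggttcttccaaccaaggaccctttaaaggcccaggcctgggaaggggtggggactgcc
Npnt, chr3:132950292-132950541, minus strand: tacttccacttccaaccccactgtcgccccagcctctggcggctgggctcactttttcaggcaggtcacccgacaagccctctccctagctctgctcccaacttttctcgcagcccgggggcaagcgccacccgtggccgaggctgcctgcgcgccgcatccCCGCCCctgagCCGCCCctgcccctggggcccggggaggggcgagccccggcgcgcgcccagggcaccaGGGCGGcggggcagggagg
Plod1, chr4:147936777-147937026, minus strand: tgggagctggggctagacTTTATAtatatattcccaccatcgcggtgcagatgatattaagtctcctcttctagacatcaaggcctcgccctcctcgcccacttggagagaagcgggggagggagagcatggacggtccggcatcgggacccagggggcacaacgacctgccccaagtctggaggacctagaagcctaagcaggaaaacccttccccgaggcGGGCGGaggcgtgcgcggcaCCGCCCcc
The Tnc window held 1 GC box and 1 TATA box, the Plod1 window 2 GC boxes and 1 TATA box, the Npnt window 3 GC boxes, and the Lama2 window none of these letters. The Lama2 window lay inside an intron of the longer GENCODE M21 gene model. A GC box was found in 20 of the 29 member windows and 5 of the 8 called ones, against 33.0% of 27025 gene windows. TATAAA was found in 3 of 29 and 2 of 8, against 12.98%, and ACGTG in 5 of 29 and 0 of 8, against 16.5%. These matches describe the letters only.

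Of the 11 tested genes of the cardiac jelly and interstitial matrix, 2 were higher, 1 was lower and 8 did not pass, with a median log2 fold change of 0.26. Gene positions are those of GENCODE M21 on GRCm38 (mm10), and values written with ± below are log2 fold changes of cKO against control with their SE unless given otherwise. Hapln1 (chr13:89539796-89611652), the link protein that fastens versican to hyaluronan, stood at 253, 382, 302 and 276 CPM in controls 1 to 4, against 174, 212, 215 and 224 CPM in cKO 1 to 4. All 4 cKO embryos lay below the lowest control. It was 1.47-fold lower in cKO (log2 fold change -0.56 ± 0.12, SE, edgeR adjusted p = 0.0177), and with the Xist covariate the log2 fold change was -0.35 (adjusted p = 0.453). Vcan, its partner 43.7 kb away on chromosome 13, stood at 1423, 1609, 1959 and 1820.0 CPM in control against 1857, 2023, 1866 and 1762 CPM in cKO embryos. Those ranges overlapped, and Vcan did not pass (0.14 ± 0.09, edgeR adjusted p = 0.486). Per kilobase of exon, Hapln1 amounted to 43.6, 58.2, 37.8 and 37.2% of Vcan in controls and to 23.0, 25.6, 28.2 and 31.1% in cKO embryos. These ratios did not overlap, which was already so for Hapln1 by itself. Of the cardiac jelly trio of Has2, Vcan and Hapln1, Hapln1 alone passed the threshold.

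Tnc (chr4:63959785-64047015), which encodes tenascin-C, a glycoprotein of remodelling matrix, had the largest rise of the called members. Its levels were 201, 114, 243 and 226 CPM in controls 1 to 4, against 362, 409.9, 373 and 331 CPM in cKO 1 to 4. The groups did not overlap, and control 2 was the lowest of the 8 embryos. Tnc was 1.88-fold higher in cKO (0.91 ± 0.18, SE, edgeR adjusted p = 0.01), and with the Xist covariate its log2 fold change was 1.0 (adjusted p = 0.158). Sparc (chr11:55394500-55423183), a collagen-binding glycoprotein, ranked behind Serpinh1 and Fn1 alone by level per kilobase in control 'HEART'. It stood at 572, 583, 610.1 and 590.3 CPM in control against 693, 691, 736 and 743 CPM in cKO embryos, 4 values close together in each genotype and no overlap. The rise was 1.22-fold (0.28 ± 0.06, SE, edgeR adjusted p = 0.0139), and with the Xist covariate the log2 fold change was 0.34 (adjusted p = 0.121).

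Fn1, which encodes fibronectin, was the second most abundant member per kilobase after the chaperone gene Serpinh1. It varied widely within the controls, at 1665, 3138, 2474 and 2176 CPM, and stood at 2580.1, 3387, 2749 and 3272 CPM in cKO embryos. The groups overlapped, and Fn1 did not pass (0.34 ± 0.15, SE, edgeR adjusted p = 0.284). Without control 2, its highest control, the adjusted p was 0.065. Fn1 did not pass with any other embryo left out or by DESeq2. Without control 1, its lowest control, the log2 fold change was smaller than with all embryos. Spon1, an F-spondin gene, had no overlap between genotypes (299, 334, 333 and 254 CPM in control against 362, 378, 371 and 347 CPM in cKO) but an adjusted p of 0.126 in edgeR, which was 0.0688 without cKO 4 and 0.0694 by DESeq2. For Thbs1, which encodes the adhesive glycoprotein thrombospondin-1, the log2 fold change was 0.59 ± 0.22 (edgeR adjusted p = 0.177, 0.0828 without control 3 and 0.0673 without cKO 4). Leaving out any other embryo gave no call for Spon1 or for Thbs1, and DESeq2 did not call Thbs1. Bgn, the small proteoglycan biglycan, had 0.42 ± 0.18 (edgeR adjusted p = 0.251).

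Dcn, the small collagen-binding proteoglycan decorin, was near the detection limit and was not tested in the main fit. Its reads numbered 12, 34, 25 and 47 in controls 1 to 4 and 5, 4, 5 and 4 in cKO 1 to 4, or 0.776, 2.90, 2.02 and 3.88 CPM against 0.392, 0.328, 0.585 and 0.307 CPM. Every cKO embryo lay below every control. With no filter on low counts its log2 fold change was -2.57 ± 0.49 (SE, edgeR adjusted p = 0.00479), and DESeq2 gave -2.59 ± 0.58 (adjusted p = 0.000403).

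**Figure D2:**
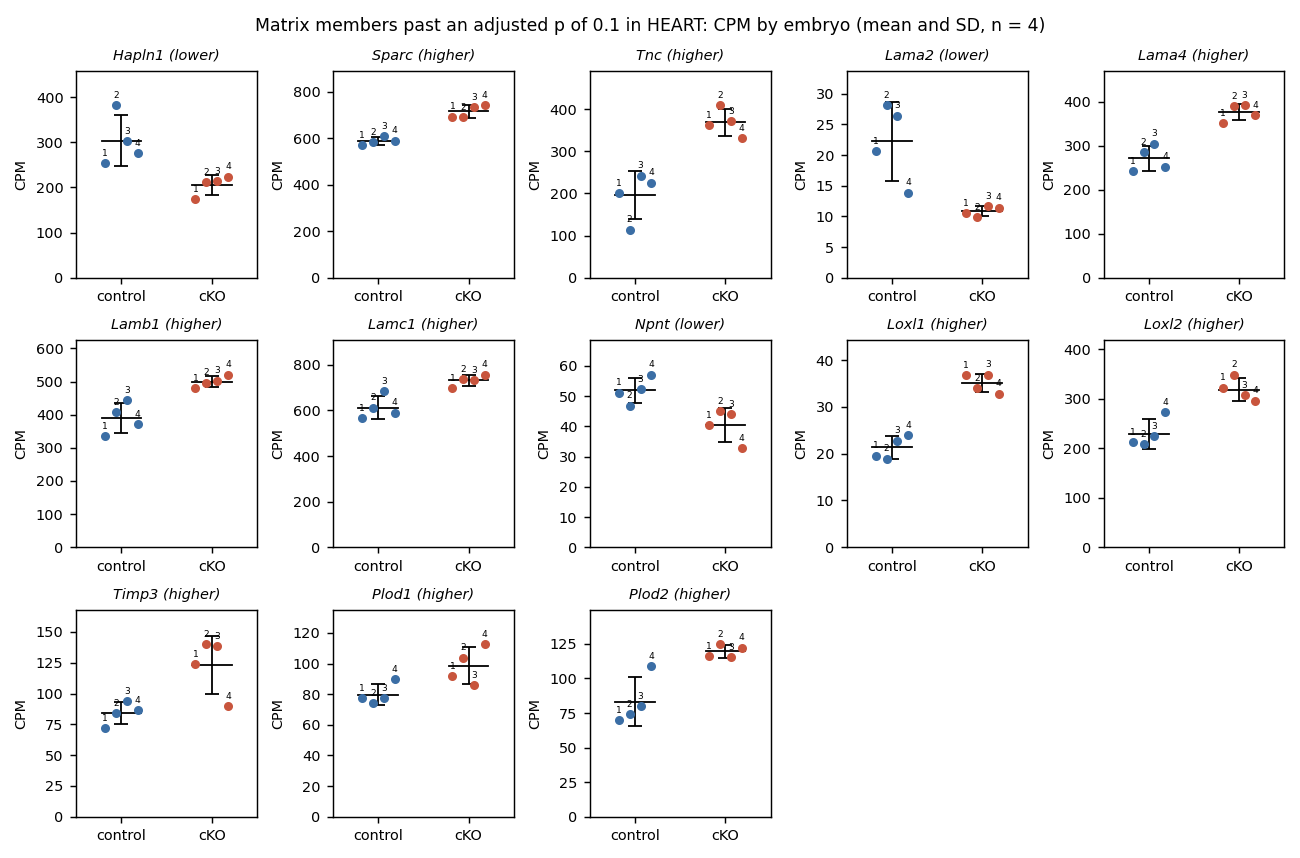
CPM of the 13 called members in each 'HEART' embryo, control in blue and cKO in red, with replicate numbers beside the points, horizontal lines for the means and bars for the SD (n = 4 each). Every vertical axis starts at 0. The groups are separate for 11 members and overlap for Timp3, at cKO 4, and Plod1, at cKO 3.

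In the basement membrane group 3 members were higher, 2 were lower and 6 of 11 did not pass, with a median log2 fold change of 0.16. The higher members were genes of an alpha, a beta and a gamma chain, whose products can join in 1 laminin trimer. Lama4 (chr10:38965515-39110188), the alpha chain of endothelial and mesenchymal basement membranes, stood at 242, 285, 305 and 252 CPM in controls 1 to 4, against 352, 389.9, 392 and 370.5 CPM in cKO 1 to 4. The lowest cKO embryo exceeded the highest control, and the rise was 1.39-fold (0.47 ± 0.08, SE, edgeR adjusted p = 0.00435). Lamb1 (chr12:31265234-31329644), a beta chain gene, stood at 336, 407, 444 and 372 CPM in control against 479, 497, 503 and 521 CPM in cKO embryos, again without overlap. It was 1.28-fold higher (0.36 ± 0.08, SE, edgeR adjusted p = 0.024).

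Lamc1 (chr1:153218922-153332786), the gamma chain shared by most laminins, stood at 565, 612, 684 and 590.2 CPM in control against 697, 738, 734 and 757 CPM in cKO embryos. The groups were separate, with control 3 just under the lowest cKO embryo. Lamc1 was 1.19-fold higher (0.26 ± 0.07, SE, edgeR adjusted p = 0.0572). That call did not hold without control 1 (adjusted p = 0.177), control 2 (0.125), control 4 (0.127), cKO 2 (0.144) or cKO 3 (0.106). The ratio of Lamb1 to Lamc1 per kilobase of exon was 0.496, 0.555, 0.542 and 0.525 in controls and 0.574, 0.561, 0.571 and 0.574 in cKO embryos.

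Lama2 (chr10:26980036-27619758), the alpha chain of muscle basement membranes, was the called member with the largest fall. It stood at 20.6, 28.1, 26.4 and 13.9 CPM in controls 1 to 4, against 10.6, 9.91, 11.7 and 11.4 CPM in cKO 1 to 4. The 4 cKO values lay within 2 CPM of each other and below all controls, of which control 4 was the lowest. Lama2 was 2.04-fold lower in cKO (-1.03 ± 0.19, SE, edgeR adjusted p = 0.00705), and with the Xist covariate the log2 fold change was -0.94 (adjusted p = 0.168). Npnt (chr3:132881745-132950291), which encodes nephronectin, an integrin ligand of basement membranes, stood at 51.2, 46.9, 52.5 and 57.1 CPM in control against 40.4, 45.1, 44.1 and 32.7 CPM in cKO embryos. The highest cKO embryo lay just under the lowest control. Npnt was 1.28-fold lower (-0.36 ± 0.10, SE, edgeR adjusted p = 0.0796), a call that did not hold without control 1 (0.169), control 3 (0.156), control 4 (0.172) or cKO 1 (0.186).

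Among the 5 laminin alpha chain genes, of which Lama3 is not a member, levels per kilobase of exon gave Lama4 50.6 to 59.6% of the sum in controls and 58.7 to 63.1% in cKO embryos. The share of Lama2 was 3.75, 4.14, 3.63 and 2.05% in controls and 1.36, 1.18, 1.38 and 1.34% in cKO embryos. These Lama2 shares did not overlap, which was already so for Lama2 by itself, while those of Lama4 did. Lama5, an alpha chain of epithelial and endothelial basement membranes, took 28.3 to 33.1% in controls and 27.7 to 32.5% in cKO embryos.

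**Figure D3:**
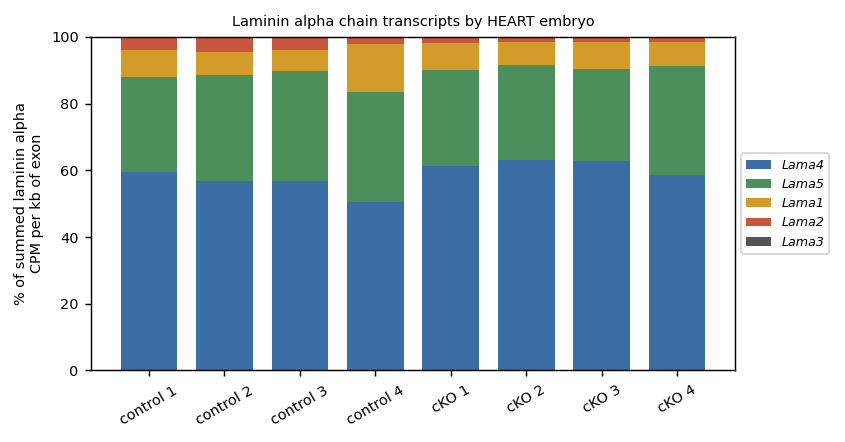
Share of each laminin alpha chain gene in the summed alpha chain level (CPM per kilobase of exon, in percent) for the 8 'HEART' embryos, as stacked bars from 0 to 100%. Lama4 is the largest segment in every embryo, Lama2 takes 2.05 to 4.14% in controls and 1.18 to 1.38% in cKO embryos, and the Lama1 segment is widest in control 4, at 14.2%.

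The linker proteins of the basement membrane did not pass. Nid2, a nidogen that bridges laminin and type IV collagen, was the most abundant gene of the group per kilobase and stood at 706, 723, 764 and 828 CPM in control against 805, 800.5, 773 and 895 CPM in cKO embryos. Hspg2, which encodes perlecan, stood at 836, 1156, 1070.2 and 1017 CPM and 1104, 1274, 970.1 and 1287 CPM. Both genes overlapped between genotypes, with log2 fold changes of 0.12 ± 0.07 and 0.18 ± 0.11 (edgeR adjusted p = 0.448 and 0.429). For Nid1 and the heparan sulfate proteoglycan Agrn the log2 fold changes were 0.16 ± 0.12 and 0.13 ± 0.08, and for Lama5 0.23 ± 0.12.

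Among the enzymes, inhibitors and the chaperone, 5 of the 12 tested members were higher, 0 were lower and 7 did not pass, with a median log2 fold change of 0.18. DESeq2 also called 5 of this group. It called 982 genes in all, or 4.02% of the 24421 gene rows, a base that includes the rows left out of edgeR's test. Loxl1 (chr9:58287738-58313186), a lysyl oxidase that acts on elastic fibres, had the smallest p of the 46 tested members. It stood at 19.6, 18.9, 22.8 and 24.0 CPM in controls 1 to 4, against 36.7, 34.1, 36.9 and 32.8 CPM in cKO 1 to 4. Every cKO embryo exceeded every control, and the rise was 1.65-fold (0.72 ± 0.10, SE, edgeR adjusted p = 0.00105). Loxl2 (chr14:69609068-69695834), which crosslinks type IV collagen, stood at 212, 208, 225 and 273 CPM in control against 323, 349, 307 and 296 CPM in cKO embryos. Control 4 was the highest control and still lay below cKO 4, the lowest cKO embryo. Loxl2 was 1.39-fold higher (0.47 ± 0.09, SE, edgeR adjusted p = 0.0093), and with the Xist covariate the log2 fold change was 0.58 (adjusted p = 0.101).

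The collagen lysyl hydroxylases Plod1 and Plod2 were both higher in cKO 'HEART'. Plod2 (chr9:92542223-92608428), which modifies collagen telopeptides, stood at 69.8, 74.4, 80.3 and 109 CPM in control against 116, 125, 115 and 122 CPM in cKO embryos. The groups were separate, with control 4 nearest to the cKO range, and the rise was 1.44-fold (0.52 ± 0.12, SE, edgeR adjusted p = 0.0225). Plod1 (chr4:147909753-147936767), which acts on the collagen helix, stood at 77.4, 74.0, 77.6 and 89.6 CPM in control against 91.9, 104, 85.8 and 113 CPM in cKO embryos. Control 4 exceeded cKO 3, so the groups overlapped. Plod1 was 1.24-fold higher (0.31 ± 0.09, SE, edgeR adjusted p = 0.0949). It did not pass with library totals in place of scaling factors (0.137), or without control 1 (0.233), control 2 (0.211), control 3 (0.201), cKO 1 (0.137), cKO 2 (0.234) or cKO 4 (0.11).

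Timp3 (chr10:86300372-86349506), an inhibitor of metalloproteinases that binds to matrix, stood at 72.1, 83.9, 94.1 and 86.3 CPM in controls 1 to 4, against 124, 140.1, 138 and 89.6 CPM in cKO 1 to 4. cKO 4 lay within the control range and the other 3 cKO embryos above it. Timp3 was 1.46-fold higher (0.55 ± 0.13, SE, edgeR adjusted p = 0.0298), but did not pass without control 1 (0.112) or cKO 2 (0.115). The gene lies within Syn3 on the opposite strand, and Syn3 itself stood at 0.351 to 1.06 CPM in the 8 embryos.

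Serpinh1, which encodes the collagen chaperone HSP47, was the most abundant of the 48 members per kilobase in both dissections. It stood at 1378, 1215, 1259 and 1412 CPM in control against 1330.5, 1370.3, 1347 and 1461 CPM in cKO embryos, with overlap (0.07 ± 0.07, SE, edgeR adjusted p = 0.692). Timp2 stood at 78.4, 67.0, 79.4 and 73.0 CPM in control against 87.1, 79.5, 81.8 and 71.4 CPM in cKO embryos, also with overlap (0.10 ± 0.08, edgeR adjusted p = 0.591). The collagen-degrading and membrane-bound metalloproteinase genes Mmp2 and Mmp14 had log2 fold changes of 0.04 ± 0.10 and 0.17 ± 0.09, and the versican-cleaving proteases Adamts1 and Adamts9 had -0.23 ± 0.11 and 0.19 ± 0.09. Loxl3 stood between 3.50 and 7.72 CPM over the 8 embryos (0.17 ± 0.26).

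None of the 12 elastic fibre and microfibril genes passed in 'HEART' with edgeR's test, and their median log2 fold change was 0.06. DESeq2 called 1 of the 12, Fbn1, against 4.02% of all 24421 gene rows, those left out of edgeR's test included. Fbln1, a fibulin of early matrix, was the most abundant per kilobase and stood at 278, 274, 231 and 265 CPM in control against 280.1, 261, 243 and 311 CPM in cKO embryos. Fbn2, the fibrillin of embryonic microfibrils, stood at 608, 749, 749 and 749 CPM and 742, 771, 729.9 and 802 CPM, with control 1 alone below the rest. Mfap2, a microfibril-associated glycoprotein, stood at 28.3, 22.5, 24.3 and 22.6 CPM and 27.8, 23.4, 26.2 and 24.3 CPM. These 3 genes overlapped between genotypes, with log2 fold changes of 0.06 ± 0.09, 0.09 ± 0.08 and 0.05 ± 0.10 (SE).

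The highest log2 fold changes of the elastic fibre group were those of Fbn1, the other fibrillin, at 0.44 ± 0.15 (SE, edgeR adjusted p = 0.149), and Ltbp1, a latent TGF-beta binding protein, at 0.28 ± 0.10 (edgeR adjusted p = 0.169). Without control 2 the adjusted p of Fbn1 was 0.0522, without control 3 that of Ltbp1 was 0.021, and with the Xist covariate they were 0.0585 and 0.082. Leaving out any other embryo gave no call for either gene, and without control 1 both log2 fold changes were smaller than with all embryos. Elastin itself was barely transcribed, with 10 to 48 Eln reads per embryo (0.825 to 3.88 CPM), and Fbln5, needed for elastic fibre assembly, had 6 to 24 reads. At such counts the estimates of these genes had wide errors (0.02 ± 0.41 and -0.53 ± 0.44). Efemp2, Ltbp3 and Mfap4, whose log2 fold changes were -0.20 ± 0.11, -0.04 ± 0.24 and 0.22 ± 0.20, each overlap a counted gene on the opposite strand. For Emilin1 and Fbln2 the log2 fold changes were 0.04 ± 0.08 and 0.11 ± 0.29.

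Summed over its members, each group had a higher mean in cKO 'HEART'. The basement membrane genes summed to 3204 to 3895 CPM in controls and 3984 to 4539 CPM in cKO embryos (means 3658 ± 312 and 4237 ± 265, SD, n = 4 each). The enzyme group summed to 2071 to 2402 CPM in controls and 2425 to 2559 CPM in cKO embryos. These 2 sums did not overlap between genotypes, whereas those of the cardiac jelly genes (4559 to 6357 CPM against 6242 to 7303 CPM) and of the elastic fibre genes (1327 to 1628 CPM against 1596 to 1822 CPM) did. No test was run on the sums, which include the called members and to which the most abundant genes give most of the value. Averaged as log2(CPM + 1) over members, the cardiac jelly group differed by -0.15 in cKO, in place of 0.24 for its sum. The basement membrane group differed by 0.08 in place of 0.21, the elastic fibre group by 0.09 in place of 0.16, and the enzyme group by 0.23 in place of 0.17.

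A set of 5 members had their highest control value, in control 4, far above the other 3 controls, beyond Dixon's 95% limit for the gap to the next value over the range of 4. Over all genes tested, which leave out Lox of this set, a control stood apart in this way for 3.22%. By embryo it was 1.17% in control 4 and 0.67, 0.709 and 0.677% in controls 1, 2 and 3. Postn, which encodes periostin, a matrix protein of cushion mesenchyme and fibroblasts, stood at 4.01, 9.47, 11.6 and 129 CPM in controls 1 to 4, against 5.10, 1.64, 8.78 and 2.69 CPM in cKO 1 to 4. Control 4 alone, with 1566 reads, lay above 12 CPM. The log2 fold change was -3.15 ± 0.97 (SE, edgeR adjusted p = 0.103) and -0.92 without control 4 (0.348). Without control 1, 2 or 3 its adjusted p was 0.0621, 0.0766 and 0.0882, and with each cKO embryo left out in turn 0.144 to 0.268. Lum, the keratan sulfate proteoglycan lumican, had 681 reads in control 4 and 0 to 17 in the other 7 embryos. It stood at 0.323, 0.853, 0.0808 and 56.2 CPM in control against 1.18, 0, 1.99 and 0 CPM in cKO embryos. Its log2 fold change was -4.32 ± 1.61 (edgeR adjusted p = 0.187), and 0.81 without control 4 (0.776), so that 1 embryo set its direction.

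Lama1, the alpha chain of the earliest embryonic basement membranes, stood at 26.6, 28.7, 26.1 and 56.9 CPM in controls 1 to 4, against 37.0, 35.4, 39.8 and 36.3 CPM in cKO 1 to 4. The 4 cKO embryos lay above controls 1 to 3 and below control 4. Over all 8 embryos Lama1 did not pass (0.10 ± 0.21, SE, edgeR adjusted p = 0.859), but without control 4 its log2 fold change was 0.45 (adjusted p = 0.0114). Has2, the hyaluronan synthase, stood at 79.1, 84.1, 79.3 and 115 CPM in control against 87.8, 86.9, 62.6 and 63.5 CPM in cKO embryos, with control 4 highest and cKO 3 and 4 lowest. It did not pass with control 4 (-0.24 ± 0.14, edgeR adjusted p = 0.428) or without it (-0.10, 0.754). Lox, the founding lysyl oxidase, was near the detection limit, with 40 reads in control 4 and 2 to 12 in the other embryos (0.323, 0.171, 0.485 and 3.30 CPM in control, 0.549, 0.983, 0.468 and 0.922 CPM in cKO).

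**Figure D4:**
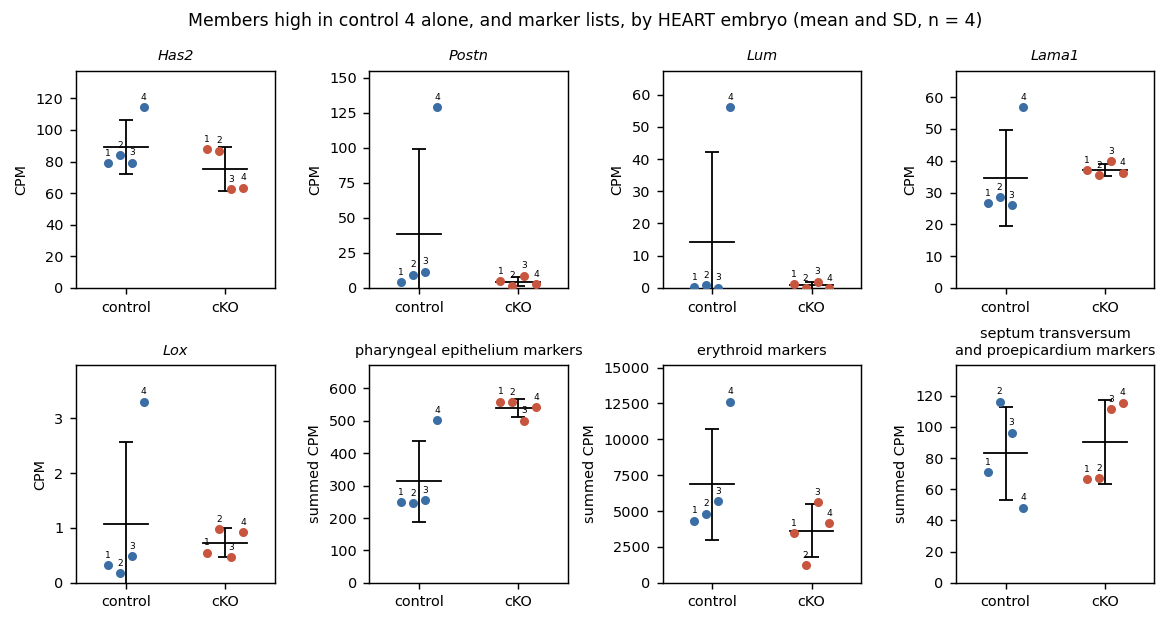
CPM of the 5 members that are high in control 4 alone, and summed CPM of the pharyngeal epithelium, erythroid and septum transversum and proepicardium marker lists, in each 'HEART' embryo (control blue, cKO red, replicate numbers beside the points, lines for means, bars for SD, n = 4 each, bars cut where they pass below 0). Control 4 stands highest for Postn (129 CPM) and Lum (56.2 CPM) and for erythroid markers, and lowest of the 8 embryos for septum transversum and proepicardium markers.

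Some marker lists of other cell types differed between the genotypes or were highest in control 4. In a bulk sample fewer cells of a type and less RNA per cell cannot be told apart. Of the 7 pharyngeal epithelium markers, all above 1 CPM in some embryo, 5 were tested and 1, Krt19, was higher in cKO. They summed to 247 to 502 CPM in controls, control 4 being the highest, and to 501 to 559 CPM in cKO embryos. The keratin genes Krt8, Krt18 and Krt19 gave nearly all of these sums, while Epcam, Cdh1, Foxa2 and Sox2 stood at 0 to 9.66 CPM, and Cdh1, with a log2 fold change of -1.75 ± 0.96 (SE), did not pass. Of 7 neural crest and paraxial mesenchyme markers 3 were tested and all 3, Twist1, Alx1 and Prrx1, were lower in cKO (27.0 to 39.2 CPM in controls, again highest in control 4, and 11.7 to 14.99 CPM in cKO embryos), and Foxd3 was at 0 in every embryo. Cushion mesenchyme markers summed to 110 to 143 CPM in controls and 144 to 262 CPM in cKO embryos, with 1 of 5, Pdgfra, higher (0.98 ± 0.19, SE), while Sox9, Snai1, Snai2 and Msx1 had log2 fold changes of 0.02, -0.41, -0.49 and -0.37 and did not pass. Endocardial and endothelial markers, at 782 to 1058 and 836 to 1061 CPM, gave 0 of 7 calls. The part of these cell types in the matrix values was not tested. Without control 4 and cKO 4 together, a setting chosen after the data were seen, 16 members were called, 14 higher and 2 lower, against 12.4% of all genes.

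In 'SHF' the deposited table held 1 FPKM value per genotype, so the ratios given here have no replicate check, and the authors' own p-values were not used. Of the 43 members with a mean of at least 1 FPKM, 12 were higher and 31 lower in cKO, with a median log2 ratio of -0.12, against -0.01 over 11030 loci. Of those loci 5045 were higher and 5984 lower. At 1.5-fold 0 members were higher and 2 were lower, or 4.65% of the members, against 1.96% of all loci in either direction (0.562% upward and 1.4% downward). The 2 lower members were Lum, with 6.82 FPKM in cKO embryos against 16.3 FPKM in control embryos, and Postn, at 2.36 and 5.78 FPKM. Both also stood high in control 4 alone in 'HEART', an embryo that also gave an 'SHF' control sample, so the dissections are not independent here. The widest ratios within 1.5-fold were those of Loxl1, with 3.14 FPKM (cKO) against 2.39 FPKM (control), and Vcan, at 76.8 and 100.2 FPKM.

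**Figure D5:**
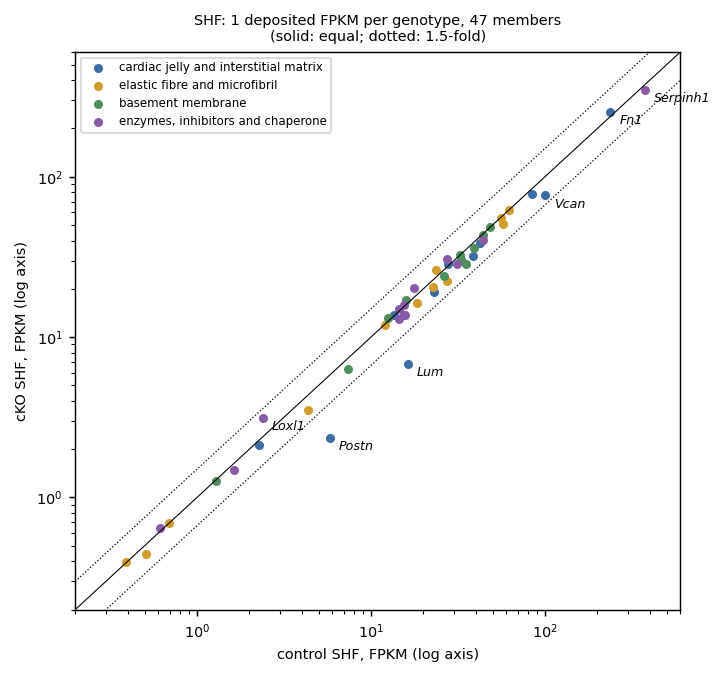
FPKM of 47 members in 'SHF', control on the horizontal and cKO on the vertical log axis, 1 deposited value per genotype and colours by group. The solid line marks equal values and the dotted lines 1.5-fold. Lum and Postn lie below the lower dotted line, and the other 45 members lie between the lines.

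The 12 members called in 'HEART' that had a locus of their own in 'SHF' differed there by at most 1.32-fold. Hapln1 was at 31.9 FPKM in cKO 'SHF', against 38.6 FPKM in control 'SHF', Tnc at 28.6 and 27.7 FPKM, Sparc at 78.2 and 84.0 FPKM, and Lama2 at 1.27 and 1.29 FPKM. The laminin chain genes that were higher in 'HEART' stood at 6.37 and 7.37 FPKM (Lama4), 48.3 and 48.6 FPKM (Lamb1) and 43.5 and 43.9 FPKM (Lamc1). Plod2 stood at 30.6 and 27.4 FPKM, Plod1 at 15.9 and 15.5 FPKM, Timp3 at 20.2 and 17.7 FPKM, and Npnt at 24.1 and 26.3 FPKM. The Loxl2 locus, shared with Mir6950, stood at 37.1 and 37.0 FPKM. Serpinh1 (349 and 373 FPKM) and Fn1 (255 and 238 FPKM) ranked first and second in 'SHF' controls as in 'HEART' controls, and Eln (0.397 and 0.389 FPKM) ranked last of the 47. A difference between the dissections was not tested, since the libraries were made with different kits and 'SHF' had no values per embryo.

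Other genes of the matrix were counted in the same 'HEART' fit, on lists also made with earlier results of these data known. In that fit 6.44% of all genes tested were called, 3.51% higher and 2.92% lower, and the shares below only describe the lists. Of 47 tested noncollagen matrix proteins outside the 48, 5 were higher and 1 was lower (12.8%), among them the SPARC relative Sparcl1 (0.91 ± 0.14, SE), the follistatin relative Fstl1 (0.34 ± 0.06) and Frem2, a basement membrane protein (0.67 ± 0.14). Of 44 other matrix enzymes and inhibitors, 8 were higher and 5 were lower (29.5%), among them Adam19 (0.46 ± 0.07), Adamts19 (-1.84 ± 0.34) and the versican-cleaving protease Adamts5 (-1.31 ± 0.26). Of 23 matrix receptors, 5 were higher and 1 was lower (26.1%), among them the syndecan gene Sdc4 (0.70 ± 0.10), the collagen- and laminin-binding integrin chain Itga1 (0.72 ± 0.10) and the hyaluronan receptor Cd44 (0.57 ± 0.10).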

How the data were processed

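Samples, each from a different embryo within a dissection, were grouped by their titles. The deposited 'HEART' table held raw counts per gene, made by the authors with fastp 0.20.1, STAR 2.7.2b (mm10) and featureCounts 1.6.4. Its 8 columns of normalised values per sample, and the authors' fold changes and p-values in both tables, were not used, and dates stood where symbols should be in 27 of 24421 rows. For 'SHF' the authors deposited a table of 32568 loci with an FPKM value for each genotype. The methods name STAR 2.5.0b, HTSeq and DESeq2 for 'SHF', whereas its columns are laid out as by Cuffdiff, and the FPKM unit was taken from that layout. Without values per 'SHF' embryo, no test was run there.

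'HEART' counts were fitted with edgeR 4.0.16 in R 4.3.3 (filterByExpr, TMM scaling, glmQLFTest of cKO against control, Benjamini-Hochberg adjustment, threshold 0.1). CPM are TMM-scaled, and SE is the log2 fold change over the root of the F statistic. The biological coefficient of variation was 11.2%. Levels per kilobase used exon lengths of GENCODE M21, which matched 95.6% of symbols and also gave the positions (GRCm38, the mm10 assembly). They are approximate where the counting used other gene models. 'SHF' log2 ratios were taken from the authors' FPKM at loci with 1 symbol and a mean of at least 1 FPKM, using the locus of highest mean where a symbol had several. The gap rule for a control that stands apart took the distance to the next control over the range of the 4.

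The members, lists and markers were chosen with earlier results of these data known. All 48 members are accounted for. Values per embryo are given for members past the threshold, the 3 highest per kilobase in each group and those with a control that stood apart, and also for Spon1 and Dcn, which were added after their values were seen. Of the other matrix genes at most 3 per list, those of smallest p, are named. Alternatives were DESeq2 1.42.0, limma-voom 3.58.1, RLE size factors, library totals, no or another filter on low counts, an adjusted p of 0.05, leaving out each embryo, replicate and embryo-code blocks, an Xist covariate and, for 'SHF', other folds, minimums, loci and a pseudocount.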

Additional observations from a re-analysis of the deposited data

Results flagged for a closer look

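Of 96 sets of 4 embryos (48 members in each genotype of 'HEART'), 7 had a value far from the other 3, where chance flags about 1 in 20 independent sets. The sets share the same 8 embryos and are not independent, so 7 is not read as an excess. Control 4 held 5 of the 7 as the highest control, with Has2 at 114.6 CPM (next control 84.1), Postn at 129 CPM (11.6), Lum at 56.2 CPM (0.853), Lama1 at 56.9 CPM (28.7) and Lox at 3.30 CPM (0.485). Fbn2 was lowest in control 1, at 608 CPM, while the other controls started at 749 CPM. Eln was lowest in cKO 4, at 1.54 CPM, below 2.11 CPM in the next embryo, a difference of few reads.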

How the results depend on the processing

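Over the 8 fits that left out 1 embryo, 500 to 1421 genes and 11 to 15 members were called, against 817 and 13 with all embryos. By group these fits called 3 to 6 cardiac jelly members (3 with all embryos), 0 to 1 elastic fibre members (0), 3 to 5 basement membrane members (5) and 3 to 5 enzymes (5). The extremes for all genes came without cKO 2 (500) and without cKO 4 (1421, 11.1%). With log2 Xist as a covariate 208 genes and 7 members were called, by group 0, 2, 3 and 2. Without control 4 and cKO 4, chosen after the data were seen, 1578 genes and 5 cardiac jelly members were called. DESeq2 called 5 cardiac jelly members, Dcn among them, and 1 elastic fibre member, and edgeR without a count filter called 5 cardiac jelly members. At a threshold of 0.05, 549 genes and 10 members passed, and 3 basement membrane members. With library totals 360 genes were higher and 478 lower, against 446 and 371, and 9 members were higher and 4 lower.

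Deviations of same-numbered embryos correlated at 0.08, 0.06, 0.21 and -0.06 for numbers 1 to 4, which cannot decide whether they were paired. By embryo code, control 3 (E8.5) shares a prefix with cKO 3 (E8.4), and control 4 (E19.7) with cKO 4 (E19.8). cKO 1 (E12.3) and cKO 2 (E12.7) also share a prefix. The labels do not say what the prefix marks. With the prefix as a random block (correlation 0.21), 897 genes and 14 members were called. With the replicate block 917 genes and 17 members were called, among them 6 cardiac jelly and 2 elastic fibre members. Npnt did not pass (0.105) and Fn1, Spon1, Thbs1, Fbn1 and Ltbp1 did.

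No call reversed its direction in any fit, and estimates of members that were not called changed sign 26 times. In 'SHF' 4 of 43 members passed the lower fold tried, 1 higher in cKO (Loxl1) and 3 lower (Lum, Postn and Vcan). At that fold 211 of the 11030 loci were higher (1.91%) and 412 were lower (3.74%). With a mean of at least 5 FPKM 1 member (Lum) passed 1.5-fold, against 2 in the main setting. As a mean of log2(CPM + 1), the difference was -0.15 for the cardiac jelly group (0.24 for the sum) and 0.08 for the basement membrane group (0.21). Read depth limits Dcn, Lox, Eln and Fbln5, and 4 embryos per genotype limit all calls.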
